A study of Mus musculus with 4 samples.

Results

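Galactolipid synthesis, the pathway that builds the antigens O4 and GalC, was examined through 10 genes in oligodendrocytes, the glial cells that wrap brain axons in myelin. The genes were taken by name as the enzymes that make ceramide, galactosylceramide and sulfatide, plus the glycolipid transfer protein. All 10 were among the 35869 gene rows of the table, and all 10 passed the filter on low values. RNA was sequenced from cells positive for both O4 and GalC, sorted by fluorescence from mouse cortex on postnatal day 5. The mutant mice carried the Zfp488 knock-in on both chromosomes (Zfp488KI/KI, in the labels Zfp488 KO) and gave 2 libraries (KO). The control mice are labelled WT, also with 2 libraries. The labels also list the cells as a cell line. Strain, sex, the design of the knock-in and any allele that both genotypes share were not given in the sources used here. Nothing says that the libraries of a genotype came from separate animals, so the p-values rest on the spread between libraries, part of which may be technical.

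Galactosylceramide and its sulfated form, sulfatide, are the characteristic glycolipids of myelin. Their synthesis starts in the endoplasmic reticulum, where serine palmitoyltransferase joins serine to palmitate, a reductase and a ceramide synthase turn the product into dihydroceramide, and a desaturase completes ceramide. A galactosyltransferase adds galactose, often to a ceramide whose fatty acid has been 2-hydroxylated, and a sulfotransferase in the Golgi makes sulfatide. The GalC antibody binds galactosylceramide and the O4 antibody binds sulfatide, so the sort kept cells by the products of these enzymes. The levels below therefore describe the sorted material, and cells outside the gate were not measured. The libraries also held RNA of markers of other cell types, in unequal amounts, as set out below.

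The promoters of 3 genes are shown because they carry the results below, namely the enzymes that make the sorting antigens, Ugt8a and Gal3st1, and Sptlc1, the only gene of the 10 whose KO libraries both lay above both WT libraries. Of the 10 genes, 9 had a RefSeq promoter window (GRCm38.p6, the 250 bases before an annotated start). The sequences run 5′ to 3′ on the gene's strand and stop where the RefSeq gene span begins, which for Ugt8a and Sptlc1 lies upstream of the GENCODE gene start used for the gene coordinates further on. Ugt8a lies at chr3:125938683-125938902 (minus strand), Gal3st1 at chr11:3983386-3983635 (plus strand) and Sptlc1 at chr13:53377418-53377611 (minus strand). Capitals mark GC boxes (GGGCGG, or CCGCCC on the other strand) and Sox sites (ACAAAG or ACAATG on either strand).
Ugt8a: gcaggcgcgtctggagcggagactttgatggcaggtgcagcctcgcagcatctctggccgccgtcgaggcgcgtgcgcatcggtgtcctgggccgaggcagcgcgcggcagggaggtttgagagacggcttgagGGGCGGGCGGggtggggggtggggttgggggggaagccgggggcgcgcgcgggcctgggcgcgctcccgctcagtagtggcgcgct
Gal3st1: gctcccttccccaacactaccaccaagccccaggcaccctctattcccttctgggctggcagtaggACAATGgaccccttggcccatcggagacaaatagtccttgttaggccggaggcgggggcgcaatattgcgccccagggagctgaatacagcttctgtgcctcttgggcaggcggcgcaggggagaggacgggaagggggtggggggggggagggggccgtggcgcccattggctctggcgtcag
Sptlc1: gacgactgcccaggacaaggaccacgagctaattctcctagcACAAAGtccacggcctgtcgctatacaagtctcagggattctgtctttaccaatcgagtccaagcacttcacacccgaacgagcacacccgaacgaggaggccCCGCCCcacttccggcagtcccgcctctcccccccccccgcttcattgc

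Over all windows of 250 bases, a GC box was found for 7 of the 9 genes (Ugt8a, Cers2, Cers4, Sptlc1, Sptlc2, Kdsr and Gltp), against 32.7% of 32851 RefSeq windows. A Sox site was found for Gal3st1 and Sptlc1, against 25.2% of the windows. The Myrf motif CTGGNAC was found for 0 of the 9 genes, against 16.1% of the windows, and the E-box CANNTG, on both strands like the others, for 6 of 9, against 66.2%. A gene counted if any of its windows held the motif, while the percentages are per window. Gal3st1 had 3 windows and Cers2 had 2, and the E-box of Gal3st1 was not in the window shown. Overlapping GC boxes in Ugt8a were counted separately. The 9 genes' windows were 55.2% to 76.8% G and C, against a median of 52.4%, and the part of base composition in the GC box count was not tested. A match here is a description of the letters, not a binding site.

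The 4 libraries held between 311846 (KO 1) and 341145 (WT 2) summed FPKM, the deposited unit, which scales fragments to transcript length and to the mapped total. Low values gathered at steps of a whole read, from which 1 FPKM on a transcript of 1 kb stood for about 37.0 (WT 1) to 43.7 (WT 2) reads. On the shortest annotated coding transcript of each gene, the smallest of the 40 values of the 10 genes stood for about 748 reads (Sptlc1 in WT 2), an approximate figure, since the transcript lengths behind the FPKM are unknown. Zfp488 itself was at 4.82 and 4.11 FPKM in KO and 6.61 and 5.29 FPKM in WT, a difference that did not pass (limma, adjusted p = 0.950), and which part of the gene the allele removes is unknown here. Of 10754 tested rows, 0 passed limma's test at an adjusted p under 0.05 (0% of rows), while 608 (5.65%) had an unadjusted p under 0.05. Among the 10 genes, 0 passed and 0 had an unadjusted p under 0.05.

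Libraries differed in the markers of other cell types, mostly within each genotype. Summed over 8 endothelial markers, KO 2 held 29.9 FPKM and WT 2 held 29.3 FPKM, most of it from the tight junction gene Cldn5 (26.3 and 26.8 FPKM), whereas KO 1 and WT 1 held 0.038 and 0.005 FPKM. Kdr reached 1.95 FPKM and Ly6c1 1.25 FPKM in KO 2, Flt1 reached 1.20 FPKM and Ly6c1 0.586 FPKM in WT 2, and all 3 were at most 0.003 FPKM in KO 1 and WT 1. Pecam1, Cdh5 and Tek were at most 0.635 FPKM in every library. Microglial markers, 8 in number, summed to between 24.3 and 73.0 FPKM in KO and between 19.7 and 69.9 FPKM in WT, and the 8 astrocyte markers to between 116.6 and 258.1 FPKM in KO and between 91.6 and 170.5 FPKM in WT. The 8 neuronal markers summed to between 20.8 and 40.3 FPKM in KO and between 15.8 and 31.9 FPKM in WT, with Slc17a7 at most 0.031 FPKM. Of the 3 neuronal markers tested, Stmn2 (3.67 and 6.57 FPKM in KO, 1.35 and 0.503 FPKM in WT; limma, unadjusted p = 0.015, adjusted p = 0.859) and Snap25 (6.84 and 6.82 FPKM in KO, 3.46 and 5.06 FPKM in WT) were also higher in both KO libraries, and their part in the results below was not tested. For each of these lists the higher sum of a genotype was that of library 2, but single genes differed. C1qb (9.85 and 53.6 FPKM in KO, 9.97 and 43.4 FPKM in WT) carried much of the microglial sums of libraries 2. Slc1a3 (92.4 and 187.0 FPKM in KO, 71.9 and 102.1 FPKM in WT) carried much of the astrocyte sums. C1qa (10.4 and 9.46 FPKM) and Tmem119 (2.24 and 0.024 FPKM) were higher in KO 1 than in KO 2. Stmn2 was higher in WT 1 than in WT 2. Olig2, which defines the oligodendrocyte lineage, was at 454.1 and 453.0 FPKM in KO and 390.2 and 399.5 FPKM in WT. In such bulk samples, fewer cells of a type and less RNA per cell cannot be told apart.

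Genotype did not separate most of the pathway. The KO and WT libraries overlapped for 8 of the 10 genes, both KO libraries lay above both WT libraries for 1, and below for 1. Over all tested rows, 16.6% lay above and 18.3% below, so these counts were near the background. The median log2 fold change of the 10 genes, KO over WT, was -0.095, and that of all tested rows was near 0 (8.1e-05). With the libraries rescaled to TPM, which gives each the same sum, 2 of the genes lay above and 0 below, against 21.7% and 13.1% of all rows. All fold changes are on the log2(FPKM + 1) scale, which understates the change of low genes.

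**Figure D1:**
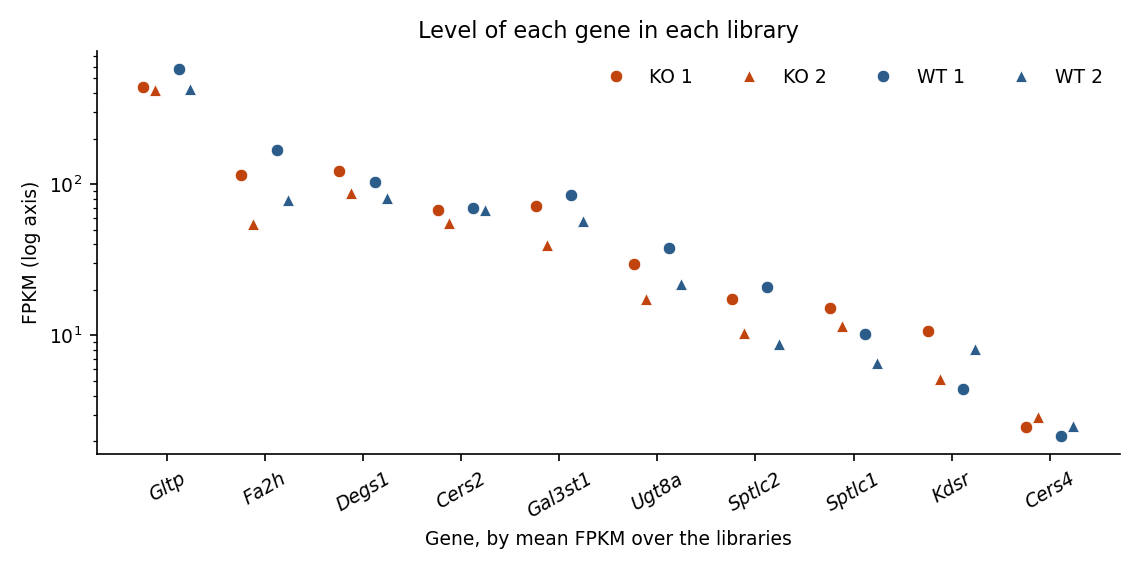
FPKM (log axis) of the 10 genes in each library, with KO in red and WT in blue and libraries 1 and 2 as circles and triangles. Levels run from Gltp, at 417.5 FPKM or more in every library, down to Cers4, at 2.88 FPKM or less, and the groups overlap for 8 of the 10.

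Levels per length spanned a wide range, and the mean over the 4 libraries was 185-fold higher for Gltp than for Cers4. Gltp (464.3 FPKM) was followed by Fa2h (104.2), Degs1 (98.3), Cers2 (65.1), Gal3st1 (63.4), Ugt8a (26.7), Sptlc2 (14.4), Sptlc1 (10.9), Kdsr (7.12) and Cers4 (2.51). Between neighbours in this order, the ranges over libraries did not overlap between Gltp and Fa2h, between Degs1 and Cers2, between Gal3st1 and Ugt8a, or between Kdsr and Cers4. The ranges of the remaining neighbours overlapped. Among these, Ugt8a exceeded Sptlc2 within each of the 4 libraries, and the order of the others differed between libraries. Gltp, Fa2h, Degs1, Cers2, Gal3st1 and Ugt8a were each above both Sptlc subunits within every library.

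Ugt8a encodes the ceramide galactosyltransferase, which makes galactosylceramide, the GalC antigen. The gene spans chr3:125865271-125938619 on the minus strand (GRCm38), with 5 exons in its longest transcript. Ugt8a was at 29.7 and 17.3 FPKM in KO 1 and KO 2, and at 38.0 and 21.8 FPKM in WT 1 and WT 2. KO 2 was the lowest library and WT 1 the highest, and KO 1 lay between the WT libraries. The means were 23.5 ± 8.78 FPKM in KO and 29.9 ± 11.5 FPKM in WT (SD, n = 2 each). The log2 fold change was -0.33 (SE 0.40, 95% confidence interval -1.37 to 0.71), which did not pass (limma, adjusted p = 0.975). It turned to 0.044 without KO 2 and to 0.058 without WT 1.

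Gal3st1 encodes the cerebroside sulfotransferase, which turns galactosylceramide into sulfatide, the O4 antigen. It lies at chr11:3983636-3999326 on the plus strand, with 4 exons in its longest transcript. Gal3st1 was at 72.1 and 39.9 FPKM in KO 1 and KO 2, and at 84.7 and 56.9 FPKM in WT 1 and WT 2. The libraries stood in the same order as for Ugt8a, with KO 1 again between the WT libraries. The log2 fold change was -0.37 (SE 0.36, 95% interval -1.300 to 0.57; limma, adjusted p = 0.950), and without KO 2 it was 0.052. Within a library the ratio of Gal3st1 to Ugt8a was 2.42 and 2.31 in KO and 2.23 and 2.61 in WT, so the groups overlapped.

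Fa2h encodes the fatty acid 2-hydroxylase, which supplies the hydroxylated fatty acids of myelin galactolipids. It lies at chr8:111345135-111393824 on the minus strand. Fa2h was at 115.8 and 54.8 FPKM in KO 1 and KO 2, and at 168.0 and 78.5 FPKM in WT 1 and WT 2. KO 1 exceeded WT 2, so the groups overlapped. Its log2 fold change of -0.52 (SE 0.51, 95% interval -1.82 to 0.78) was the most negative of the 10 and did not pass (limma, adjusted p = 0.950). Without KO 2 it was 0.012 and without WT 1 it was 0.022.

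For these 3 enzymes, library 1 of a genotype was well above library 2. The ratio of KO 1 to KO 2 was 1.72 for Ugt8a, 1.81 for Gal3st1 and 2.12 for Fa2h, and the ratio of WT 1 to WT 2 was 1.74, 1.49 and 2.14. Of the 10 genes, 8 were higher in library 1 than in library 2 of both genotypes, against 26.4% of all tested rows. Kdsr did so in KO alone, and Cers4 was lower in library 1 of both genotypes. The same libraries 2 held the larger sums of endothelial, microglial, astrocyte and neuronal markers, and their part in these values was not tested. The myelin markers moved alongside, with a summed level over 11 genes of 550.7 and 259.2 FPKM in KO and 833.3 and 508.6 FPKM in WT. The sum over the 12 precursor markers was also higher in library 1, at 1856 and 1406 FPKM in KO and 1515 and 1354 FPKM in WT. Its genes did not move together. Susd5, C1ql1, Cacng4, Gpr17 and Vcan were higher in library 1 of both genotypes. Pdgfra, Lhfpl3 and Pcdh15 were lower in library 1 of both, and Cspg4, Ptprz1, Tnr and Olig2 differed in direction between genotypes. Set 1 against 1 with no test, a comparison chosen after the values were seen, the log2 difference for KO 1 against WT 1 was -0.34 for Ugt8a, -0.23 for Gal3st1 and -0.53 for Fa2h. For KO 2 against WT 2 it was -0.32, -0.50 and -0.51, so the KO library was the lower in each of these comparisons. Nothing in the labels pairs the libraries by number, and other pairings differed. KO 2 was also below WT 1 for these enzymes. KO 1 was above WT 2, at 29.7 against 21.8 FPKM for Ugt8a, 72.1 against 56.9 for Gal3st1 and 115.8 against 78.5 for Fa2h.

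**Figure D2:**
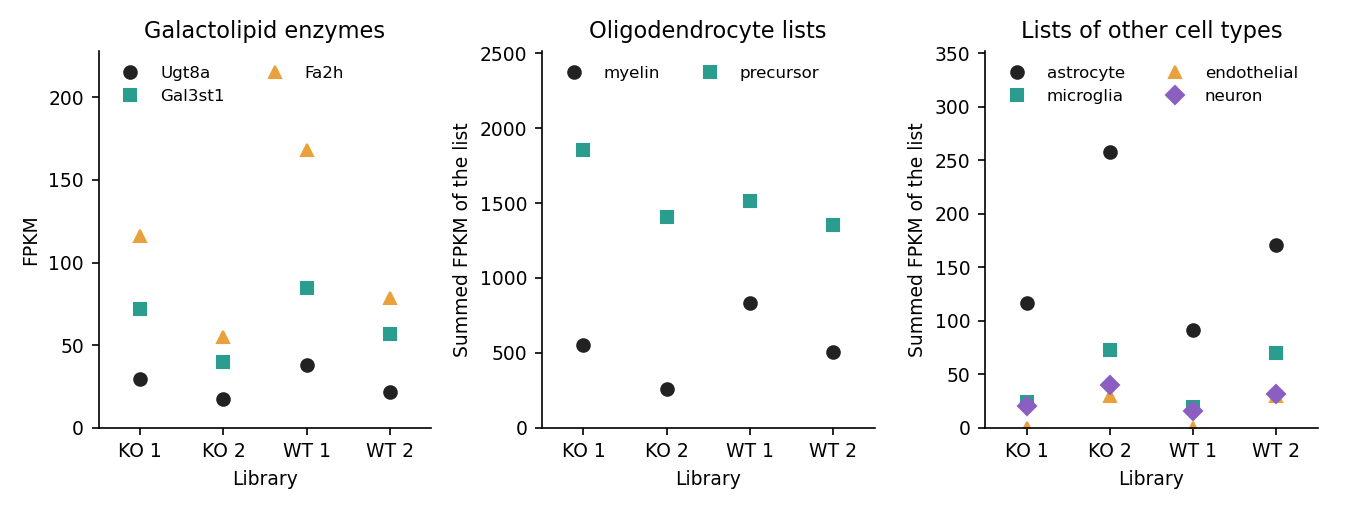
FPKM of Ugt8a, Gal3st1 and Fa2h (left), and summed FPKM of the marker lists of the oligodendrocyte lineage (middle) and of other cell types (right), in each library. The enzymes and the sums of both lineage lists are higher in library 1 of each genotype, and the sums of other cell types are higher in library 2. Single genes of the precursor list differ in direction.

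Genes whose values over the 4 libraries were most like these enzymes were found by the root mean square distance of log2(FPKM + 1), centred on each gene's mean. Those nearest to Ugt8a were Urgcp (0.040), Cacna2d3 (0.050), Dusp15 (0.053), Amz1 (0.054) and Sh3gl3 (0.055). Those nearest to Gal3st1 were Tspan2 (0.035), Tbc1d23 (0.042), Mrpl16 (0.046), Scarb2 (0.051) and Riok2 (0.051), and those nearest to Fa2h were S100b (0.053), Col9a3 (0.068), Adpgk (0.072), Tmem259 (0.074) and Bcas1 (0.081). Amz1, for example, was at 61.7 and 39.1 FPKM in KO and 85.7 and 46.0 FPKM in WT. S100b was at 145.2 and 73.9 FPKM in KO and 228.2 and 108.4 FPKM in WT. Ugt8a and Gal3st1 were 0.083 apart, Ugt8a and Fa2h 0.19, and Gal3st1 and Fa2h 0.22. With 4 libraries that share depth and cell content such likeness is a description of these libraries.

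Genes of myelin proteins were set beside the galactolipid enzymes, since both are used by the maturing cell. Mbp, which encodes a structural protein of compact myelin, was at 65.0 and 29.6 FPKM in KO and 103.0 and 74.1 FPKM in WT (log2 fold change -0.97, SE 0.42). Mog, a late protein of the outer surface, was at 5.42 and 0.758 FPKM in KO and 17.0 and 7.77 FPKM in WT (-1.90, SE 0.74). Neither passed (limma, adjusted p = 0.885 for Mbp and 0.882 for Mog). The median log2 fold change of the 10 tested myelin markers was -0.96. The KO pair was the lower for 5 of these markers and the higher for 1, against 18.3% and 16.6% of all rows.

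Relative to Mbp, Ugt8a, Gal3st1 and Fa2h were higher in KO, a ratio chosen after the values were seen. Mbp itself was lower in both KO libraries, so this separation is not particular to these enzymes. The ratio to Mbp also separates the genotypes for Sptlc1 and Olig2, whose KO pair was the higher. Ugt8a stood at 0.457 and 0.584 of Mbp in KO and at 0.369 and 0.294 in WT. Gal3st1 stood at 1.11 and 1.35 of Mbp in KO and at 0.822 and 0.769 in WT, and Fa2h at 1.78 and 1.85 in KO and at 1.63 and 1.06 in WT. Both KO ratios lay above both WT ratios for each enzyme. Permuting the labels (exact, two-sided) gave p = 0.333 for each. That is the minimum that 2 libraries against 2 can reach, and any such separation gives it. Among the 9 tested myelin markers above 0 in every library, such a separation was found with 7 for Ugt8a and for Gal3st1 (Mbp, Mag, Mog, Mobp, Cnp, Cldn11 and Sirt2) and with 5 for Fa2h, which overlapped with Cnp and Cldn11. Gjb1, a gap junction gene, went the other way for all 3 enzymes, and Myrf overlapped. The 10 tested myelin markers themselves had a median log2 fold change of -0.96. Those 7 markers were all lower in KO on average, by log2 fold changes from -0.65 (Cnp) to -1.90 (Mog). They were measured in the same 4 libraries, so these separations do not count as independent results. How many of all tested rows would separate from these markers in the same way was not counted. Pdgfra, the receptor of oligodendrocyte precursors, was at 40.2 and 42.5 FPKM in KO and 18.5 and 26.8 FPKM in WT. Of 11 tested precursor markers, the KO pair was the higher for 7 and the lower for 0, against 16.6% and 18.3% of all rows. The part of maturation state in the enzyme levels was not tested.

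**Figure D3:**
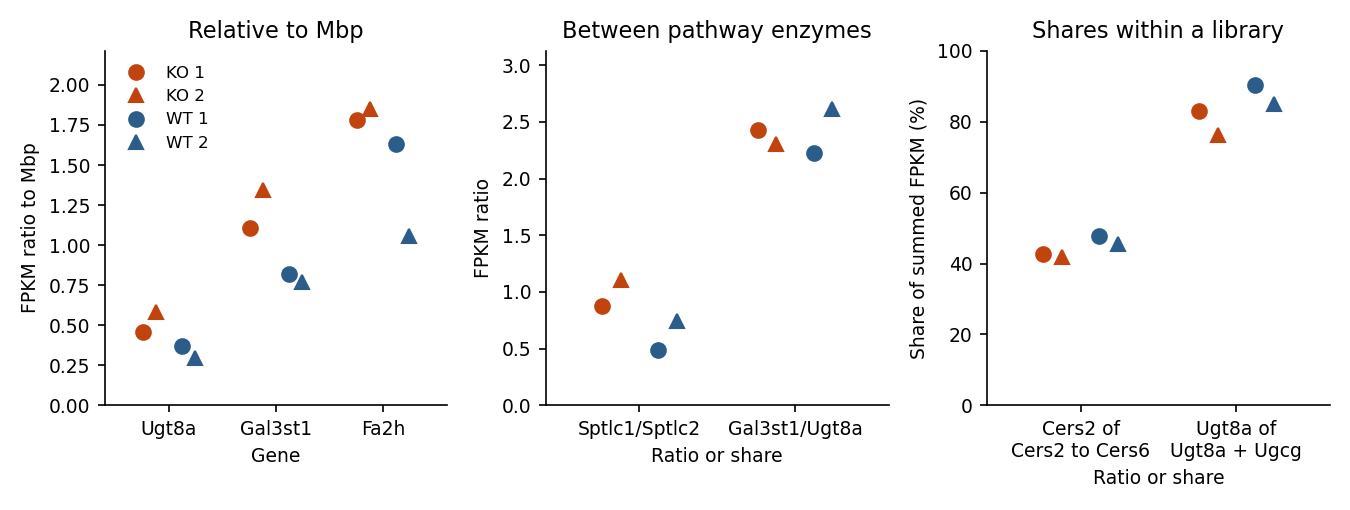
Ratios of FPKM to Mbp (left), ratios between pathway enzymes (middle) and shares of summed FPKM in percent (right), per library, with KO in red and WT in blue. The ratios to Mbp and the ratio of Sptlc1 to Sptlc2 are higher in both KO libraries, while the ratio of Gal3st1 to Ugt8a overlaps between genotypes. Mbp itself is lower in both KO libraries.

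Serine palmitoyltransferase opens the pathway as a complex of the subunits encoded by Sptlc1 and Sptlc2. Sptlc1, at chr13:53332748-53377397 on the minus strand, was at 15.2 and 11.6 FPKM in KO 1 and KO 2, and at 10.2 and 6.56 FPKM in WT 1 and WT 2. Both KO libraries lay above both WT libraries, by a log2 fold change of 0.63 (SE 0.34, 95% interval -0.25 to 1.51), which did not pass (limma, adjusted p = 0.914). Leaving out each library in turn gave values between 0.35 and 0.92. Sptlc2, which holds the catalytic residue that binds the cofactor, was at 17.3 and 10.4 FPKM in KO and at 21.04 and 8.82 FPKM in WT. The WT libraries lay outside the KO libraries on both sides, and the log2 fold change was -0.02 (SE 0.50, 95% interval -1.300 to 1.25). It was 0.32 without KO 2 and 0.56 without WT 1. The ratio of Sptlc1 to Sptlc2 within a library was 0.877 and 1.11 in KO and 0.484 and 0.744 in WT, with the groups apart. Among single genes, 16.6% of all tested rows lay above and 18.3% below, and no such share was counted for ratios.

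For other parts of that complex, the genotypes overlapped wherever a gene was tested. Sptssa, an activating small subunit, was at 136.1 and 140.5 FPKM in KO and 139.4 and 127.2 FPKM in WT. Its relative Sptssb was listed at 0 in 3 libraries and at 0.540 FPKM in KO 1, and the alternative large subunit Sptlc3 was listed at 0 in every library. The Ormdl proteins hold the enzyme back when ceramide is plentiful. Ormdl3 was at 59.2 and 50.4 FPKM in KO and 41.6 and 66.3 FPKM in WT, Ormdl1 at 35.2 and 34.1 in KO and 28.1 and 38.8 in WT, and Ormdl2 at 15.1 and 17.9 in KO and 23.3 and 15.1 in WT, so the groups overlapped for each.

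Kdsr encodes the 3-ketodihydrosphingosine reductase, which acts next. It was at 10.6 and 5.19 FPKM in KO and at 4.46 and 8.19 FPKM in WT. Its libraries crossed, with a log2 fold change of 0.26 (SE 0.48, 95% interval -0.96 to 1.49), which was -0.19 without KO 1 and -0.12 without WT 1. The direction also differed between the comparisons of 1 library with 1, at 1.09 for KO 1 against WT 1 and -0.57 for KO 2 against WT 2.

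Ceramide synthases attach fatty acids of different lengths. Cers2 makes the very long chains typical of myelin galactolipids, and Cers4 prefers somewhat shorter ones. Cers2, at chr3:95314791-95323599 on the plus strand, was at 67.3 and 55.6 FPKM in KO and at 69.7 and 67.8 FPKM in WT. The KO libraries were the lower pair, KO 1 only just. The log2 fold change was -0.17 (SE 0.19, 95% interval -0.65 to 0.32; limma, adjusted p = 0.969), and the groups overlapped after rescaling to TPM, after quantile normalization and after the trend of fold change with level was removed. Its last exon overlaps the end of Setdb1 on the other strand, which was at 3.45 and 4.43 FPKM in KO and 3.21 and 2.98 FPKM in WT, so with the strand setting not given some reads cannot be told apart. Cers4 was at 2.49 and 2.88 FPKM in KO and at 2.16 and 2.52 FPKM in WT (log2 fold change 0.14, SE 0.35, 95% interval -0.75 to 1.03), low in every library.

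Among the other ceramide synthases, Cers5 was at 87.0 and 73.8 FPKM in KO and 73.4 and 78.7 FPKM in WT, while Cers6 was at most 0.315 and Cers3 at most 0.819 FPKM in any library. Cers1 was read at 117.2 and 83.7 FPKM in KO and 144.6 and 61.3 FPKM in WT. Of the FPKM summed over Cers1 to Cers6, Cers2 took 24.5% and 25.7% in KO and 24.02% and 32.2% in WT, and the groups overlapped. The Cers1 locus holds Gdf1 on the same strand, and the ratio of Cers1 to Gdf1 was 1.52 in every library, so the reads of these genes cannot be told apart here. With Cers1 left out, a choice made after the values were seen, the share of Cers2 was 42.7% and 41.9% in KO and 47.9% and 45.4% in WT. The groups were apart, but no background was counted for such shares. Cers5 made up nearly all of the remainder, at 55.2% and 55.7% in KO and 50.4% and 52.7% in WT.

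Degs1 encodes the desaturase that completes ceramide. It was at 122.5 and 86.8 FPKM in KO and at 103.1 and 80.5 FPKM in WT, and KO 2 lay between the WT libraries. The log2 fold change was 0.18 (SE 0.24, 95% interval -0.45 to 0.81; limma, adjusted p = 0.984), and it was -0.070 without KO 1 and -5.8e-05 without WT 2. Degs2, its relative that can also add a hydroxyl group, was at 6.17 and 4.40 FPKM in KO and 5.44 and 6.42 FPKM in WT. Gltp encodes the cytosolic glycolipid transfer protein, which carries glycolipids between membranes. It was at 437.7 and 417.5 FPKM in KO and at 576.9 and 424.9 FPKM in WT, where WT 1 stood above the other 3 libraries. Its log2 fold change was -0.21 (SE 0.17, 95% interval -0.65 to 0.23; limma, adjusted p = 0.938), and it was 0.0088 without WT 1.

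**Figure D4:**
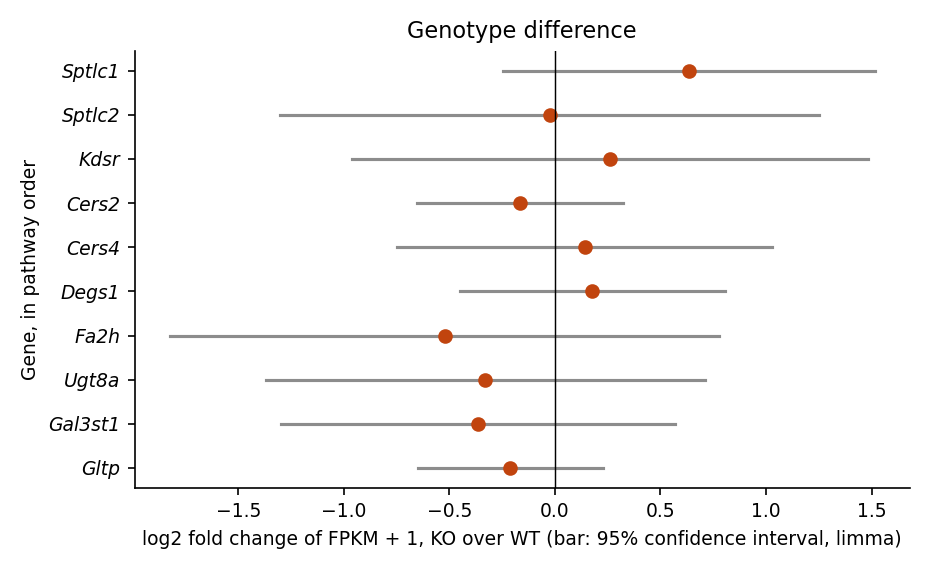
Log2 fold change of FPKM + 1, KO over WT, for the 10 genes in pathway order, with 95% confidence intervals from limma as bars. Fa2h, which supplies fatty acids, is drawn between Degs1 and Ugt8a. Every interval includes 0, and the widest are those of Fa2h, Sptlc2 and Kdsr.

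Ceramide can also enter other routes. Of 10 genes of competing branches, 7 were tested. The KO libraries were both above WT for 2 and both below for 1 (median log2 fold change 0.02). Ugcg, the glucosylceramide synthase that competes with Ugt8a for ceramide, was at 6.14 and 5.37 FPKM in KO and at 4.01 and 3.87 FPKM in WT (0.45, SE 0.32). Ugt8a took 82.9% and 76.3% of the FPKM of these 2 genes in KO and 90.5% and 84.9% in WT. The groups were apart, but no background share was counted for such ratios. B4galt5, which extends glucosylceramide to lactosylceramide, was at 3.70 and 4.66 FPKM in KO and at 0.523 and 1.87 FPKM in WT. Its log2 fold change of 1.302 (SE 0.46) had an unadjusted p of 0.035 and did not pass (limma, adjusted p = 0.859). Cerk, the ceramide kinase, was at 2.81 and 2.08 FPKM in KO and 5.02 and 2.96 FPKM in WT (-0.51, SE 0.39).

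Of 13 genes that supply sugar, sulfate and electrons or move the products, 11 were tested, with 3 higher and 2 lower in both KO libraries (median -0.04). Galt, an enzyme of galactose use, was at 13.5 and 11.8 FPKM in KO and 9.01 and 6.34 FPKM in WT (log2 fold change 0.67, SE 0.31). Papss1, which makes the sulfate donor of the sulfotransferase, was at 53.4 and 51.9 FPKM in KO and 41.7 and 40.9 FPKM in WT (0.34, SE 0.19). Impad1, a Golgi phosphatase that clears the by-product of sulfation, was at 33.5 and 29.5 FPKM in KO and 28.3 and 22.9 FPKM in WT (0.29, SE 0.24). Neither Papss1 nor Impad1 passed, and other tested sulfation genes of the list did not share their direction. Bpnt1 was the lower in KO, at 4.831 and 3.926 FPKM against 4.845 and 5.017 FPKM in WT (-0.15, SE 0.32). Slc35b2 (-0.23, SE 0.24) and Slc35b3 (-0.02, SE 0.35) overlapped between genotypes. Cyb5a, a cytochrome that passes electrons to desaturases, was at 107.5 and 112.3 FPKM in KO and 144.5 and 144.7 FPKM in WT (-0.39, SE 0.14), with an unadjusted p of 0.040 (limma, adjusted p = 0.865). Slc35a2, the Golgi carrier of UDP-galactose, overlapped between genotypes (20.1 and 17.7 FPKM in KO, 22.7 and 11.7 FPKM in WT). Mal, a myelin proteolipid that associates with galactolipids, was listed at 0 in every library, which can be a failed estimate.

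Of 18 breakdown genes, 15 were tested, with 4 higher and 2 lower in both KO libraries (median 0.14). The enzymes that act on the antigens themselves overlapped between genotypes. Galc, the lysosomal galactosylceramidase, was at 8.16 and 3.23 FPKM in KO and 4.45 and 5.34 FPKM in WT. Arsa, the sulfatidase, was at 14.0 and 7.93 FPKM in KO and 10.2 and 8.90 FPKM in WT, and Psap, which encodes their activator proteins, at 48.7 and 47.2 FPKM in KO and 49.2 and 42.4 FPKM in WT. Sgpl1, the lyase that ends sphingolipid breakdown, was at 15.3 FPKM in both KO libraries and at 8.98 and 5.86 FPKM in WT (log2 fold change 0.98, SE 0.32). Smpd1, the acid sphingomyelinase, was at 103.2 and 84.3 FPKM in KO and 65.6 and 55.9 FPKM in WT (0.61, SE 0.20). Both had an unadjusted p of 0.028 and did not pass (limma, adjusted p = 0.859 for each). Asah1, the acid ceramidase, was at 8.34 and 8.82 FPKM in KO and 7.08 and 5.80 FPKM in WT, and the alkaline ceramidase Acer3 at 1.81 and 1.51 FPKM in KO and 2.73 and 2.64 FPKM in WT.

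Of 12 genes that lengthen fatty acids, 11 were tested, with 2 higher and 4 lower in both KO libraries (median -0.08). Elovl1, the elongase that feeds Cers2 with very long chains, was at 17.7 and 11.1 FPKM in KO and 26.6 and 19.2 FPKM in WT (log2 fold change -0.65, SE 0.34; limma, adjusted p = 0.914). Elovl5, an elongase of polyunsaturated chains, was at 40.2 and 41.6 FPKM in KO and 25.8 and 32.2 FPKM in WT (0.49, SE 0.22). Hacd3 and Hacd2, dehydratases of the elongation cycle, differed by 0.28 (SE 0.19) and -0.31 (SE 0.36). None of these lists was tested as a list, and their shares of genes above and below stand against the 16.6% and 18.3% of all rows.

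**Figure D5:**
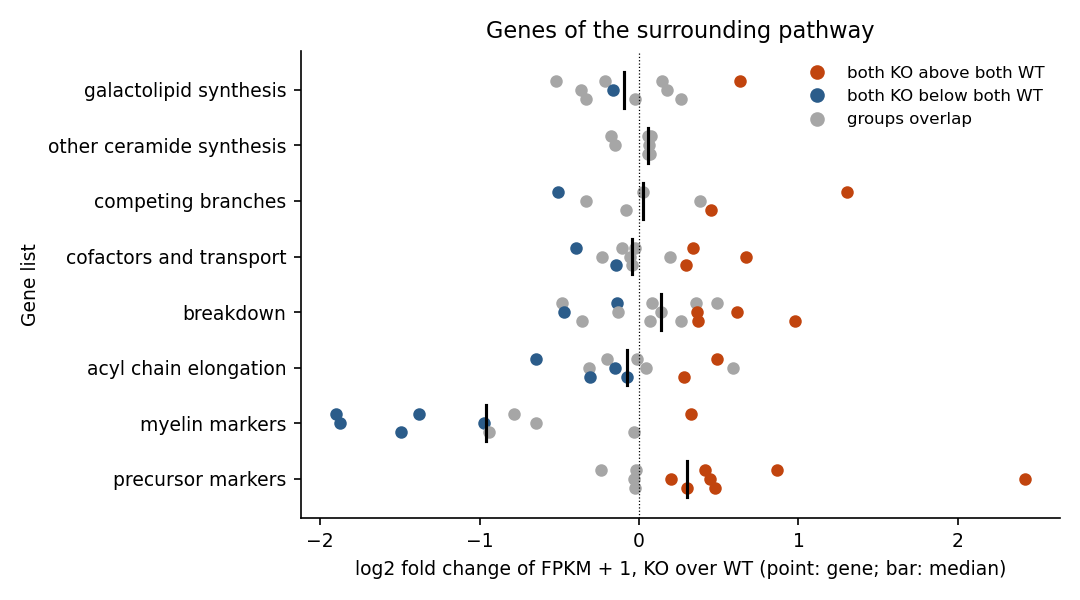
Log2 fold change of FPKM + 1, KO over WT, for every tested gene of the lists around galactolipid synthesis and of the myelin and precursor markers (point, gene; black bar, median). The median of the 10 galactolipid genes lies at -0.095, those of the other lipid lists between -0.08 and 0.14, that of the myelin markers at -0.96 and that of the precursor markers at 0.30.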

How the data were processed

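RNA was measured in 4 libraries of sorted cortical oligodendrocytes, 2 KO and 2 WT. The authors deposited FPKM per gene for each library, per the file headers. Alignment with TopHat to mm10 is named in the submitters' processing notes. The TopHat version, FPKM program, annotation and strandedness were not given in the sources used here. Of 35869 rows, 12972 held 0 in every library. A 0 can be a failed estimate.

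The 10754 rows with at least 1 FPKM in at least 2 libraries were tested as log2(FPKM + 1) with limma 3.58.1 in R 4.3.3 (genotype as the only term, empirical Bayes with a mean-variance trend, two-sided, Benjamini-Hochberg adjustment over all tested rows, threshold 0.05). The script was tested on simulated data. Gene models came from GENCODE M21 and promoters from RefSeq, both GRCm38. Reads per FPKM were estimated from the lowest peak of FPKM times the length of the longest transcript. They are approximate, and counts per gene were not rebuilt.

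The 10 genes and the 11 further lists were chosen with earlier results of these data known. Some genes of the lists are not reported here, and list counts, sums and medians leave them out. Named genes were the 10, a fixed set of partners, up to 4 per pathway list by absolute fold change among those whose genotypes did not overlap, and the 5 genes nearest to each of Ugt8a, Gal3st1 and Fa2h, leaving out small RNA, Rik and Gm-numbered rows. Zfp488, Gdf1, Setdb1, Bpnt1, Slc35b2, Slc35b3 and the other markers named in the text were added. The alternatives changed the pseudocount, filter, scaling, variance model, block and libraries.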

Additional observations from a re-analysis of the deposited data

How the results depend on the processing

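By limma, 0 genes passed under every alternative, while the number at an unadjusted p under 0.05 was 608 in the main analysis, 348 with a filter of 5 FPKM, 1123 with no filter and between 322 and 618 without a replicate. Both KO libraries lay above both WT libraries for 2 of the 10 genes in TPM (Cers4 and Sptlc1), against 21.7% of all rows. Without a replicate, 2 to 3 of the genes lay above, against 30.5% to 35.5% of all rows. Both lay below for 0 genes in TPM and after quantile normalization, against 13.1% and 17% of all rows. The number below was also 0 after removal of the level trend and after removal of level and length trends, against 17.4% and 16.9%. The last of these was added after seeing the data. Without a replicate, where fewer libraries make separation easier, 1 to 6 genes lay below, against 32.7% to 36.6% of all rows. Sptlc2 turned to 0.076 in TPM and to 0.22 for KO 2 against WT 2, Gltp to 0.0086 after removal of level and length trends, and Kdsr to -0.57 for KO 2 against WT 2; the cause was not tested. Without each replicate in turn, the log2 fold change ranged from -0.72 to 0.058 for Ugt8a, -0.78 to 0.052 for Gal3st1, -1.07 to 0.022 for Fa2h, -0.070 to 0.42 for Degs1, -0.61 to 0.56 for Sptlc2, -0.19 to 0.72 for Kdsr and -0.43 to 0.0088 for Gltp. Sptlc1, Cers2 and Cers4 kept their sign under every alternative that gave a value; Cers4 gave none with the filter of 5 FPKM. With the replicate number as a block, 0 genes passed and 1025 had an unadjusted p under 0.05. Libraries numbered 1 deviated from their genotype means together (correlation 0.289 over 10754 genes), but nothing in the labels pairs them. With the replicate block the smallest adjusted p of the 10 genes was 0.426 (Fa2h). Counts per gene were not rebuilt, so the part of counting error in the spread between libraries was not tested.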

Other observations

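Some genes of the surrounding pathway were too low to test. Plekha8, which encodes a protein that moves glucosylceramide to the distal Golgi, was at 0.705 and 1.88 FPKM in KO and 0.058 and 0.140 FPKM in WT. Col4a3bp, which encodes the ceramide transfer protein CERT, was at 0.291 and 1.03 FPKM in KO and 0.069 and 0.478 FPKM in WT, and the sphingomyelin synthase gene Sgms2 was at 0.022 and 0.172 FPKM in KO and 0.001 and 0 FPKM in WT. None of these genes reached 1 FPKM in at least 2 libraries, so no fold change is given. Papss2, the relative of Papss1, was at 0.952 and 0 FPKM in KO and 0.537 and 0.726 FPKM in WT.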
